A study of Mus musculus with 4 samples.

Results

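The loss of the transcription factor Bcl11a in granulocyte-macrophage progenitors (GMPs) was examined by comparing the *Bcl11a*-/- GMP array with the WT GMP array, 2 of the 4 arrays of the series. The other 2 arrays held multipotent progenitors (MPPs) of the same genotypes. Per the labels and the study's methods, B6.SJL hosts received a lethal dose of 1200 rad and 4000000 fetal liver cells from WT (labelled *Bcl11a*(+/+)) or *Bcl11a*-/- fetuses, and donor-derived cells were sorted from their bone marrow (BM) after 4 weeks by the labels (4 or 6 by the methods). The allele lacks the first exon of *Bcl11a*, and the deletion is germline, so it is not limited to a cell type. Cells were pooled by donor genotype, so each array is 1 pool and there is no replicate. No p-value, SD or interval can be given for any difference, and every statement describes these 2 pools only.

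Bcl11a is a zinc finger protein that recruits repressor complexes to DNA. It is known for silencing embryonic and fetal globin genes in red cells and for its need in B cell development. GMPs are BM progenitors whose offspring include neutrophils and monocytes. Red cells and platelets come from a separate branch, in which Gata1 and Klf1 drive the genes of the red cell membrane, heme and globin, and B cells come from lymphoid progenitors, in which Ebf1 and Pax5 act. The question addressed was which lineage genes differ in myeloid progenitors when Bcl11a is absent.

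Signals are given as log2 values, on which a difference of 1 is 2-fold, and differences are *Bcl11a*-/- minus WT. A gene was counted as over 2-fold when its difference passed that threshold, and it was named where either GMP array gave it a log2 value of 6 or more, or where a gene list held it. Of 19938 genes measured, 72 were over 2-fold higher in *Bcl11a*-/- GMPs (0.361%) and 56 over 2-fold lower (0.281%). Among the 9347 genes that reached a value of 6 on an array of this pair, 50 were higher (0.535%) and 31 lower (0.332%). The median difference was 0.01 over all genes and -0.02 over those that reached 6. For probe sets with a mean signal of 6 to 7, 95% differed by less than 0.56, and for those of 12 to 13, 95% differed by less than 0.22. This spread between the 2 pools is not a replicate error. Genes nearest the 2-fold threshold were *Slc18a2* (6.54 in WT and 7.55 in *Bcl11a*-/- GMPs) and *Tmem243* (7.40 and 6.38) just outside it and *Etv4* (0.99) and *Cxcl2* (-0.98) just inside it.

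The targeted gene *Bcl11a* had a signal of 8.60 in WT and 7.77 in *Bcl11a*-/- GMPs, and of 9.89 and 8.64 in the respective MPPs. It was lower in the *Bcl11a*-/- array of each population, by 0.83 in GMPs, and it was read by 1 probe set, whose position relative to the deleted exon was not analysed here, so it checks the labels only weakly. Of the 50 measured genes closest to *Bcl11a* in gene order, 25 on each side, 0 were over 2-fold in GMPs, and their median difference was 0.06 with a range from -0.53 (1700030C12Rik) to 0.80 (4930505A04Rik).

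Both arrays carried the genes that define GMPs. *Mpo*, the myeloperoxidase of primary granules, had a signal of 12.13 on both GMP arrays. *Ctsg* (cathepsin G) was at 12.86 in WT and 12.93 in *Bcl11a*-/- GMPs, and *Ms4a3*, a membrane protein of GMPs, at 12.22 and 12.11. For these 3 genes the GMP arrays differed by 0.11 at most. Of 20 genes for the sort and identity of GMPs, 1 was lower by more than 2-fold (*Ly86*, a difference of -1.22), 0 were higher, and the median was -0.09. The shares over all genes were 0.281% lower and 0.361% higher. The Fc receptor genes *Fcgr2b* and *Fcgr3*, whose products are stained in sorting GMPs, went opposite ways. *Fcgr2b* had a difference of -0.64, and *Fcgr3* was at 7.68 in WT and 7.91 in *Bcl11a*-/- GMPs. *Irf8* had a difference of -0.57. Of the 20 genes 15 had higher signal on both GMP arrays than on both MPP arrays, 3 had lower signal (*Kit*, *Cd34* and *Cd93*, surface proteins that MPPs also carry) and 2 overlapped. The share of all genes separated in these ways was not computed, so this count has no background beside it. *Cebpa*, whose factor GMPs need in order to form, differed by 0.23, *Spi1* (PU.1) by -0.27 and *Gfi1* by -0.13. Markers of red cells, B cells and eosinophils differed between the arrays and are described with their lists. Markers of further cell types included *Cd3e* of T cells (5.64 in WT and 5.77 in *Bcl11a*-/- GMPs), *Ncr1* of NK cells (3.51 and 3.34), *Adgre1* of macrophages (5.50 and 5.17), *Ly6g* and *Ltf* of late neutrophils (8.62 and 8.10, 10.05 and 9.81), and *Col1a1* and *Cdh5* of stroma and endothelium (5.95 and 6.08, 4.96 and 5.25). These 7 differed by 0.53 at most, and other monocyte and macrophage genes, given with their list, differed by more. *Xist* was at 10.94 and 10.86, and 3 Y-linked genes had signals from 2.38 to 3.72 on the GMP arrays.

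Red cell genes made up the class with the most members among the genes of higher signal in *Bcl11a*-/- GMPs. Of the 50 higher genes that reached a signal of 6, 15 were on 4 lists of erythroid transcription factors, erythroid membrane proteins, heme and iron, and globins. The lists were chosen with earlier results of these data known. Among the 15, *Hba-x*, *Rhag*, *Tspan33*, *Ank1*, *Rhd* and *Tfr2* had WT signals under 6, so they reached 6 through the *Bcl11a*-/- array alone. Over the 75 measured genes of these lists, 16 were higher and 0 lower by more than 2-fold, against 0.361% and 0.281% of all genes, and 60 had a difference above 0. Their median difference was 0.24, beside 0.01 for all genes. In the scatter of gene signals most of the 75 lie within the dotted lines, and the 16 lie above the upper line.

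**Figure D1:**
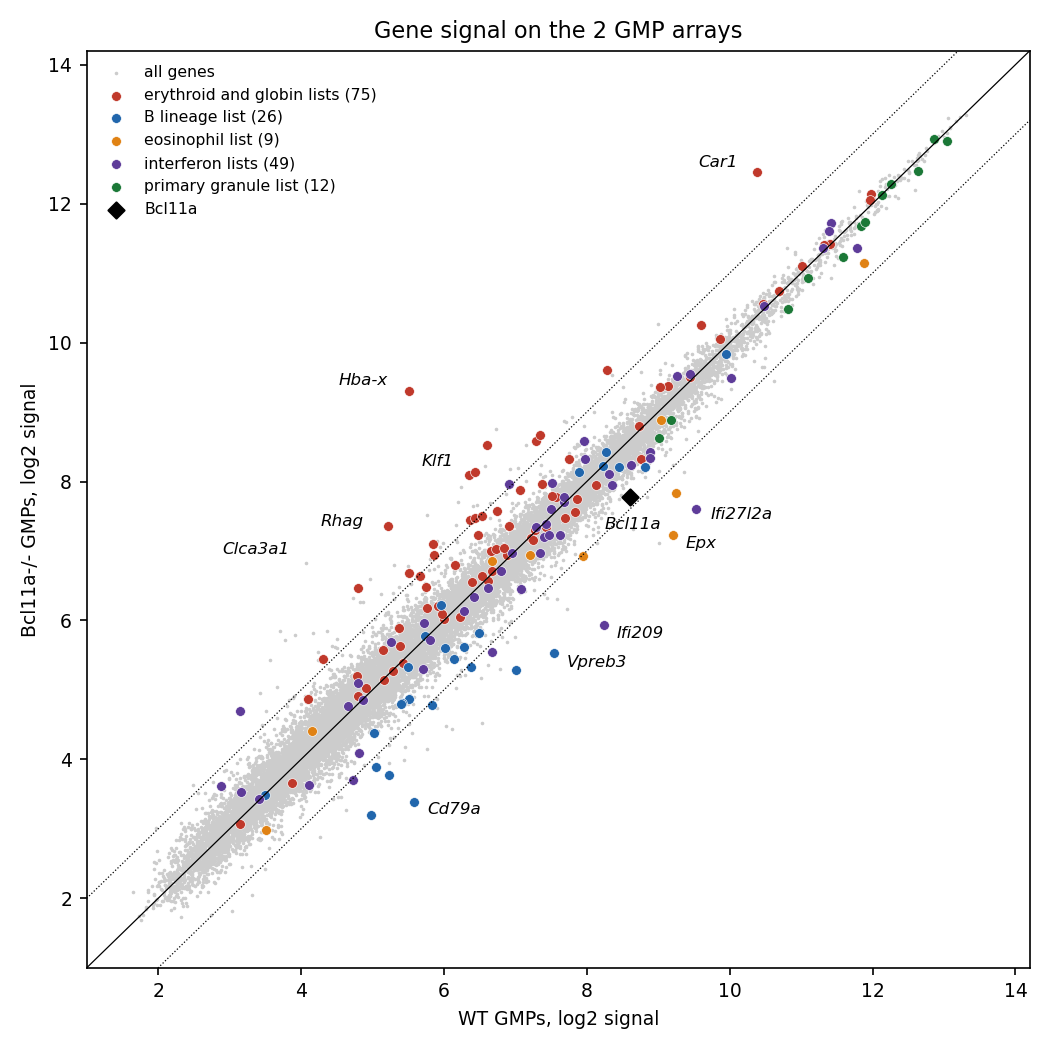
Log2 signal of each gene on the WT GMP array (x axis) and the *Bcl11a*-/- GMP array (y axis), 1 array each. Grey points are all 19938 genes and colored points are genes of the named lists, with the number of members in the legend. The solid line marks equal signal and the dotted lines a 2-fold difference. *Car1* and *Hba-x* lie above the upper dotted line, *Vpreb3*, *Ifi209* and *Epx* below the lower line, and the 12 primary granule genes near the solid line.

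Transcription factors of the red cell branch had higher signal. *Klf1*, the activator of adult beta-globin and many red cell genes, was at 6.44 in WT and 8.13 in *Bcl11a*-/- GMPs, and at 7.82 and 8.12 in WT and *Bcl11a*-/- MPPs. The WT GMP array was the lowest of the 4, and the difference in GMPs was 3.23-fold. *Gfi1b*, a repressor needed for erythroid and megakaryocytic development, was at 7.34, 8.67, 8.72 and 9.47 in the same order. *Gata1*, the central activator of the branch, was at 6.44 in WT and 7.47 in *Bcl11a*-/- GMPs. *Zfpm1*, which encodes the Gata1 cofactor Fog1, had a difference of 0.97 and *Tal1* of 0.45. Of 16 measured factors 3 were higher by more than 2-fold, against 0.361% of all genes. A difference above 0 was seen for 14, and the median was 0.21. *Gata2*, which precedes Gata1 in this branch and also acts in stem and mast cells, was on other lists and was at 7.68 in WT and 8.88 in *Bcl11a*-/- GMPs. *Hemgn*, a red cell nuclear protein gene, was named after its values were seen and had a difference of 0.95.

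The promoters of 3 of these factors are shown because letters known to be bound by Klf1 and its relatives (CACACCC) or by BCL11A (TGACCA) occur in them. Sequences are from RefSeq, build GRCm38.p6, 250 bases before to 50 bases after the annotated start, 5′ to 3′ in the direction of transcription. Capitals mark a match to 1 of the 5 motifs searched, on either strand.
*Klf1* (chr8:84901732-84902031, plus strand): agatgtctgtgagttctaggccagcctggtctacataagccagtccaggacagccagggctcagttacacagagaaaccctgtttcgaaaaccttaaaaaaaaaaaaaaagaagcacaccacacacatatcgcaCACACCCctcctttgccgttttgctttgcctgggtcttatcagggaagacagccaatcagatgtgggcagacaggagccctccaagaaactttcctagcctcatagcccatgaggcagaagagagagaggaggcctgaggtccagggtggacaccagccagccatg
*Gata1* (chrX:7967861-7968160, minus strand): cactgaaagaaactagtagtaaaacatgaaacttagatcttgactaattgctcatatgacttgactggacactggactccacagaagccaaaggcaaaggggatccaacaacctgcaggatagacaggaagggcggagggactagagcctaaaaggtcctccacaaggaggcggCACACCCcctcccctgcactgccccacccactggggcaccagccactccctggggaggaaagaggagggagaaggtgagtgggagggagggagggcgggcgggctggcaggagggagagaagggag
*Gfi1b* (chr2:28621933-28622232, minus strand): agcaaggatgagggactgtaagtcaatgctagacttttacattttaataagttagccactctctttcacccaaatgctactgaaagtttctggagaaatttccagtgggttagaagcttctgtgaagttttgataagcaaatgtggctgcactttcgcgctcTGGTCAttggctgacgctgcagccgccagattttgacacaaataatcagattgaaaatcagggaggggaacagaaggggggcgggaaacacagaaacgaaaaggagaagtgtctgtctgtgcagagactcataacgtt
The capitals in *Klf1* and *Gata1* are CACACCC, and those in *Gfi1b* are the reverse complement of TGACCA. A match is a description of these letters, and binding was not measured.

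The red cell membrane genes were the list with the most members over 2-fold. Of 25 measured genes 10 were higher and 0 lower by more than 2-fold, against 0.361% and 0.281% of all genes. A difference above 0 was seen for 23, beside 51.9% of all genes, and the median was 0.82. *Rhag*, an Rh-associated glycoprotein of the red cell membrane, was at 5.21 in WT and 7.36 in *Bcl11a*-/- GMPs, 4.42-fold higher. *Car1*, the carbonic anhydrase made in large amounts by red cells, was at 10.38 in WT and 12.46 in *Bcl11a*-/- GMPs, and at 12.20 and 12.54 in MPPs. The WT GMP array stood apart from the other 3 for *Car1*, 4.24-fold below the *Bcl11a*-/- GMP array. *Ermap*, an erythroblast membrane protein gene, was at 6.35 and 8.09, and *Tspan33*, a tetraspanin of erythroid progenitors, at 4.80 and 6.46. *Car2*, a second carbonic anhydrase of red cells, was at 8.28 and 9.60. The ankyrin gene *Ank1*, which ties the membrane to its spectrin skeleton, the blood group antigen gene *Rhd* and *Tfr2*, a transferrin receptor that senses iron, were 2.39-fold, 2.23-fold and 2.10-fold higher. The genes of the list that were within 2-fold included *Kel* (0.98), the anion exchanger *Slc4a1* (0.83), the erythropoietin receptor *Epor* (0.73), the transferrin receptor *Tfrc* (0.33) and the glucose transporter *Slc2a1* (-0.18).

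**Figure D2:**
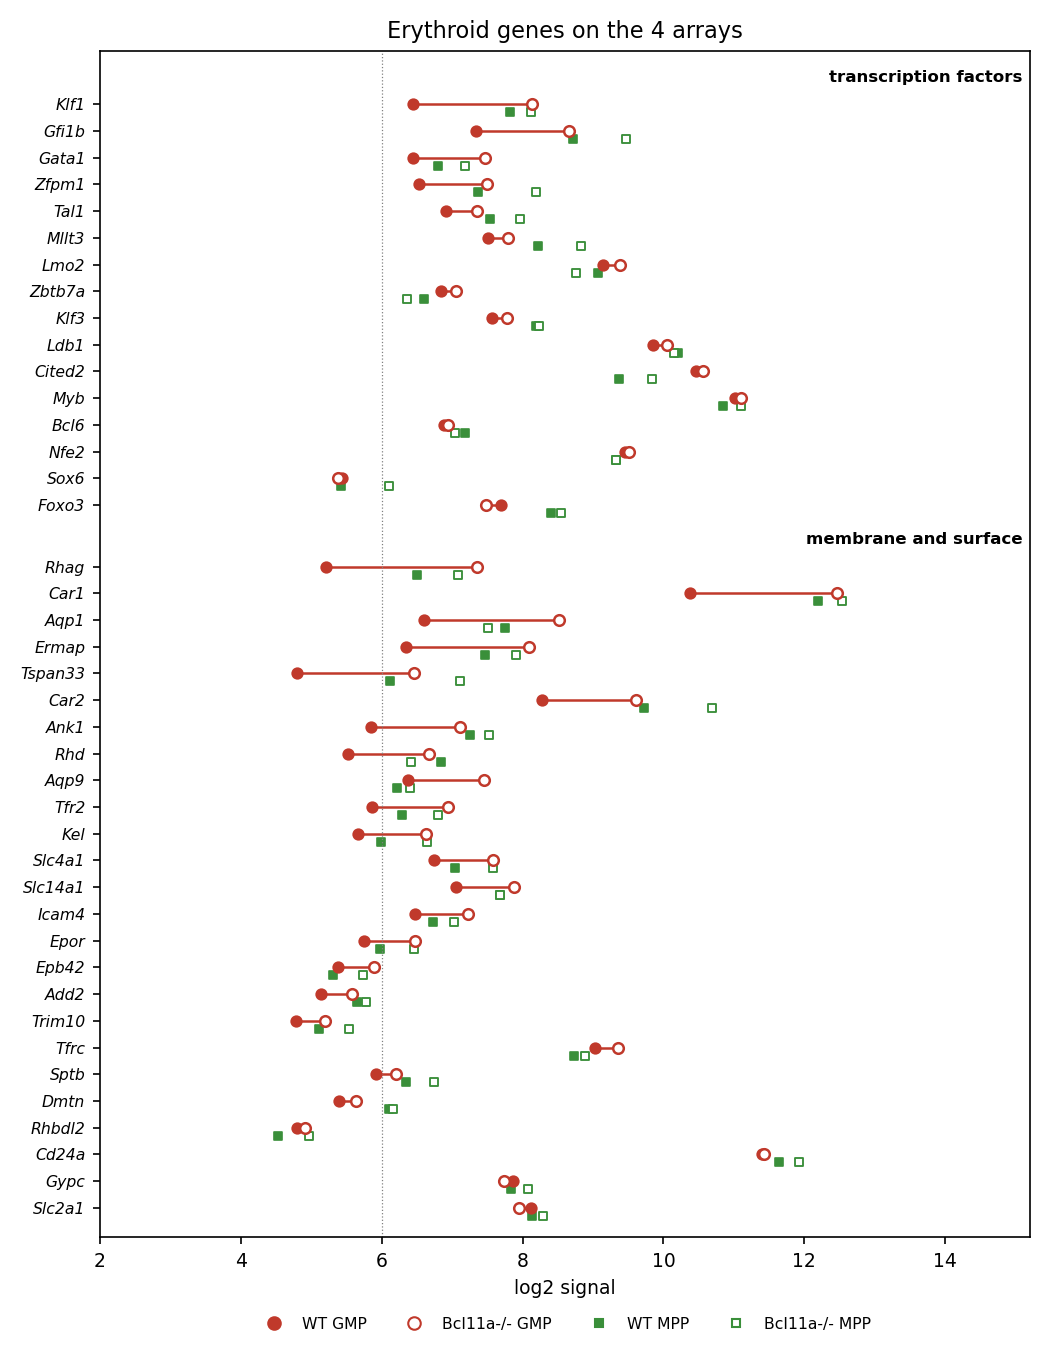
Log2 signal (x axis) of the 16 erythroid transcription factor genes and 25 erythroid membrane genes on the 4 arrays, 1 array per symbol. Red circles are GMPs and green squares, drawn slightly lower, are MPPs, filled for WT and open for *Bcl11a*-/-, and the dotted line marks a signal of 6. Genes are ordered by their GMP difference, which runs from 2.14 for *Rhag* to -0.18 for *Slc2a1* among the membrane genes.

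Water channels and other transporters had higher signal along with the membrane genes. *Aqp1*, the water channel of red cells, was at 6.60 in WT and 8.52 in *Bcl11a*-/- GMPs, and *Aqp9*, a channel for water and glycerol, at 6.37 and 7.45. *Atp1b2*, a subunit of the sodium pump, was at 6.74 and 8.76. A list of 25 solute carriers and channels, which shares *Aqp1* and *Aqp9* with the membrane list, had 6 genes higher and 0 lower by more than 2-fold and a median of 0.35. The other members were *Abcb4* (1.11), *Slc25a21* (1.48, with both signals under 6) and *Clca3a1*. The Clca genes, of the calcium-activated chloride channel regulator family, were put on the list with earlier results of these data known. *Clca3a1* is not known as a red cell gene and was at 4.07 in WT and 6.83 in *Bcl11a*-/- GMPs. Its near relative *Clca3a2*, named after its values were seen, was at 4.16 and 5.81, and signal that probes of one gene take from the other could not be told apart here. Of all 364 Slc genes 4 were higher and 0 lower by more than 2-fold, where 0.361% and 0.281% of all genes were, and their median was 0.02. This family was looked at because several of its members were over 2-fold.

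Heme and globin genes differed gene by gene. *Cpox*, which encodes coproporphyrinogen oxidase of the heme pathway, was at 7.29 in WT and 8.59 in *Bcl11a*-/- GMPs, 2.46-fold higher. It was the 1 gene of 25 on the heme and iron list over 2-fold, and the list median was 0.09. Among all genes 0.361% were higher by more than 2-fold. *Alas2*, the first enzyme of heme synthesis in red cells, and *Alad*, which acts next, each had a difference of 0.65. *Blvrb*, a biliverdin reductase that acts in heme breakdown, was on no list and was at 7.79 and 8.93.

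An embryonic globin had the largest difference of any gene in GMPs. *Hba-x*, which encodes an alpha-like globin of the embryo, was at 5.52 in WT and 9.30 in *Bcl11a*-/- GMPs, and at 5.99 and 9.16 in the respective MPPs. Both *Bcl11a*-/- arrays were above both WT arrays, and the difference was 13.8-fold in GMPs and 9.02-fold in MPPs. *Hbb-y*, an embryonic beta-like globin gene, was at 4.31 in WT and 5.45 in *Bcl11a*-/- GMPs, while *Hbb-bh1*, also embryonic, was at 3.15 and 3.08. The probe sets of the adult globins, which name several genes each, were near the top of the array's range. The 2 alpha-globin probe sets differed by 0.22 each, and the 2 beta-globin probe sets by 0.14 and 0.11. In MPPs the same adult probe sets had differences from -0.80 to -0.37, while that of *Hba-x* was 3.17. The *Hba-x* promoter is shown because it holds TGACCA, in capitals, just before its TATA box.
*Hba-x* (chr11:32276350-32276649, plus strand): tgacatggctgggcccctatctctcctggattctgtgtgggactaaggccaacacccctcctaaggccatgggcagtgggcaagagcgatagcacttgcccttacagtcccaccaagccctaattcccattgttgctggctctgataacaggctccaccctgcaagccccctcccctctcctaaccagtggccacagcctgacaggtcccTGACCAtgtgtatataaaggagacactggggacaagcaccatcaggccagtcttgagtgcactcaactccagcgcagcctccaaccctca

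Across the promoters of the genes over 2-fold, the motifs were counted on both strands as exact letters. Of the 50 higher genes 40 had a promoter in the RefSeq table (51 promoters), and of the 31 lower genes 21 had one. CACACCC was in 17.6% of promoters of higher genes, 9.52% of those of lower genes and 7.95% of all 32851 promoters. TGACCA was in 9.8% and 14.3% of promoters of higher and lower genes, and in 13.6% of all promoters. AGATAA, bound by GATA factors, was in 11.8% of promoters of higher genes, 0 of the 21 of lower genes and 11.2% of all. CAGGTG, bound by E proteins, was in 15.7%, 14.3% and 20.2%, and GAGGAAG, bound by PU.1, in 13.7%, 14.3% and 13.6%. The numbers of promoters are small, and no test was made on them.

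A further 30 of the 50 higher genes were on no list. They included the sphingosine-1-phosphate exporter genes *Mfsd2b*, known from red cells and platelets, at 6.58 in WT and 8.22 in *Bcl11a*-/- GMPs, and *Spns2*, known from endothelium, at 7.15 and 8.52. *Tspo2*, a translocator protein gene of erythroid cells, was at 5.12 and 6.38. The adhesion gene *Cldn13*, of the claudin family, was at 5.77 and 7.52. Others were the metallothionein gene *Mt2* (8.99 and 10.27), the pseudokinase gene *Trib2* (2.85-fold higher), the hypoxia-inducible factor *Hif3a* (4.86 and 6.26), the nonmuscle myosin *Myh10* (5.30 and 6.79), the myelin-associated glycoprotein *Mag* (4.73 and 6.32) and the glucosylceramide synthase *Ugcg* (7.03 and 8.20). *Ces2g*, a carboxylesterase, was 3.20-fold higher, *Rbpms2*, an RNA-binding protein, 3.12-fold, and *Ehd2*, of membrane traffic, 2.70-fold. Of the 50 higher genes 23 had a WT signal under 6, so they reached 6 through the *Bcl11a*-/- array alone.

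In MPPs the red cell genes had a median difference near that in GMPs but fewer members over 2-fold. Over the 75 genes the MPP median was 0.27, with 1 gene higher and 3 lower by more than 2-fold, where 0.908% of all genes were higher and 2.02% lower. Of the membrane genes 0 of 25 were over 2-fold in MPPs, with a median of 0.34. *Rhag* was at 6.50 in WT and 7.08 in *Bcl11a*-/- MPPs, and *Ermap* at 7.46 and 7.91. For *Klf1*, *Car1*, *Rhag* and *Ermap*, the WT GMP array thus had the lowest signal of the 4. The difference between the populations was not tested, since each group is 1 array. In pooled cells, more cells of a type and more RNA per cell cannot be told apart. *Itga2b* and *Pf4*, which mark the megakaryocyte branch, were at 6.09 and 6.90, and at 7.94 and 7.59, in WT and *Bcl11a*-/- GMPs. Of 20 megakaryocyte and platelet genes 15 had a difference above 0 and 5, *Pf4* among them, below 0. The list had 1 gene higher by more than 2-fold (*Ppbp*, at 3.57 and 5.43) and 0 lower, and its median was 0.16. In GMPs 0.361% of all genes were higher and 0.281% lower. The part of other cell types within the gate was not tested.

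Genes of B cells had lower signal in the absence of Bcl11a, although most were dim in WT GMPs. On the B lineage list, of 26 genes, 8 were lower and 0 higher by more than 2-fold, against 0.281% and 0.361% of all genes. A difference below 0 was seen for 22, and the list median was -0.62. *Vpreb3* and *Vpreb1*, whose proteins take part in making the pre-B cell receptor, were 2 of the 8. *Vpreb3* was at 7.55 in WT and 5.54 in *Bcl11a*-/- GMPs, and at 9.19 and 5.96 in MPPs. *Vpreb1* was at 7.01 and 5.29 in GMPs and at 10.57 and 6.32 in MPPs. For both genes each WT array was above each *Bcl11a*-/- array. *Cd79a*, which encodes a signal-transducing subunit of the antigen receptor of B cells, was at 5.59 and 3.39, and its partner *Cd79b*, also used in other cells, at 8.81 and 8.20. The transcription factor *Ebf1* was at 5.05 and 3.88, *Pax5* at 6.14 and 5.45, and *Spib*, shared with plasmacytoid dendritic cells (DCs), at 6.38 and 5.33. *Ms4a1* (CD20), *Jchain*, the joining chain of secreted antibodies, and *Mzb1*, of antibody-secreting cells, were also lower by more than 2-fold from WT signals of 5.23, 4.98 and 5.84. With signals under 5 set to 5, only *Vpreb3*, *Vpreb1* and *Spib* of the list were lower by more than 2-fold, and the median was -0.32.

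The promoters of the 2 pre-B cell receptor genes are shown for comparison with those above.
*Vpreb3* (chr10:75948050-75948349, plus strand): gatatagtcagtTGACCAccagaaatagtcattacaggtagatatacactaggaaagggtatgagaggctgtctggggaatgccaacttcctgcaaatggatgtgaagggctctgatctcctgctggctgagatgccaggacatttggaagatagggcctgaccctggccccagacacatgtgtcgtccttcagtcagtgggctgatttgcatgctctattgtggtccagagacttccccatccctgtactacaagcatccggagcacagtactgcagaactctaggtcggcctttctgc
*Vpreb1* (chr16:16869206-16869505, minus strand): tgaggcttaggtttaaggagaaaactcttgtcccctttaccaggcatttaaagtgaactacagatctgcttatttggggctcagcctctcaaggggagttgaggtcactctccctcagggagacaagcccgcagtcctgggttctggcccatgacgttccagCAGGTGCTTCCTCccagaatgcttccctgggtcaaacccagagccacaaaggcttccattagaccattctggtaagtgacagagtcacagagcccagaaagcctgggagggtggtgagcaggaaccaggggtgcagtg
Capitals mark TGACCA in *Vpreb3*, and in *Vpreb1* CAGGTG followed directly by the reverse complement of GAGGAAG.

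Antibody gene segments were lower as a group. Of 31 immunoglobulin probe sets 13 were lower and 0 higher by more than 2-fold, 28 had a difference below 0, and the median was -0.78. Over all probe sets 101 (0.35%) were lower by more than 2-fold. The probe set lowest relative to WT, which names several kappa variable genes and also *Map3k20*, was at 6.84 in WT and 3.76 in *Bcl11a*-/- GMPs. A lambda probe set (*Iglv1*, *Iglc1* and *Iglv2*) was at 6.50 and 4.42. The heavy chain gene *Igha* was at 6.04 and 4.49, and *Ighm* at 4.89 and 4.57. The highest WT signal among these probe sets was 6.84, and 7 of the 13 reached a signal of 6. Probe sets of near-identical segments can read the same RNA, so they do not count as separate genes. Of 52 T cell receptor probe sets 1 was lower by more than 2-fold, a gamma probe set (*Trgv6*, *Trgv4* and *Trgv2*) 2.27-fold lower, and the median was 0.

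Genes that prime progenitors for the lymphoid fate had slightly lower values as a list, and 8 of 19 reached a signal of 6. Of the 19 genes 16 had a difference below 0 and 2 were lower by more than 2-fold, *Il7r*, the receptor chain for IL-7, at 4.62 and 3.27, and *Dntt*, the DNA polymerase of V(D)J joining, at 5.46 and 4.18. Over all genes 0.281% were lower by more than 2-fold. The list median was -0.28. *Flt3* was at 6.75 and 6.46 in GMPs, and at 9.31 and 7.71 in MPPs. The transcription factors *Satb1* and *Tcf4* had differences of -0.43 and -0.44 in GMPs, and *Ikzf1*, with signals of 9.14 and 9.22, of 0.08. The T and NK list, of 24 genes, had 0 over 2-fold and a median of -0.09.

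**Figure D3:**
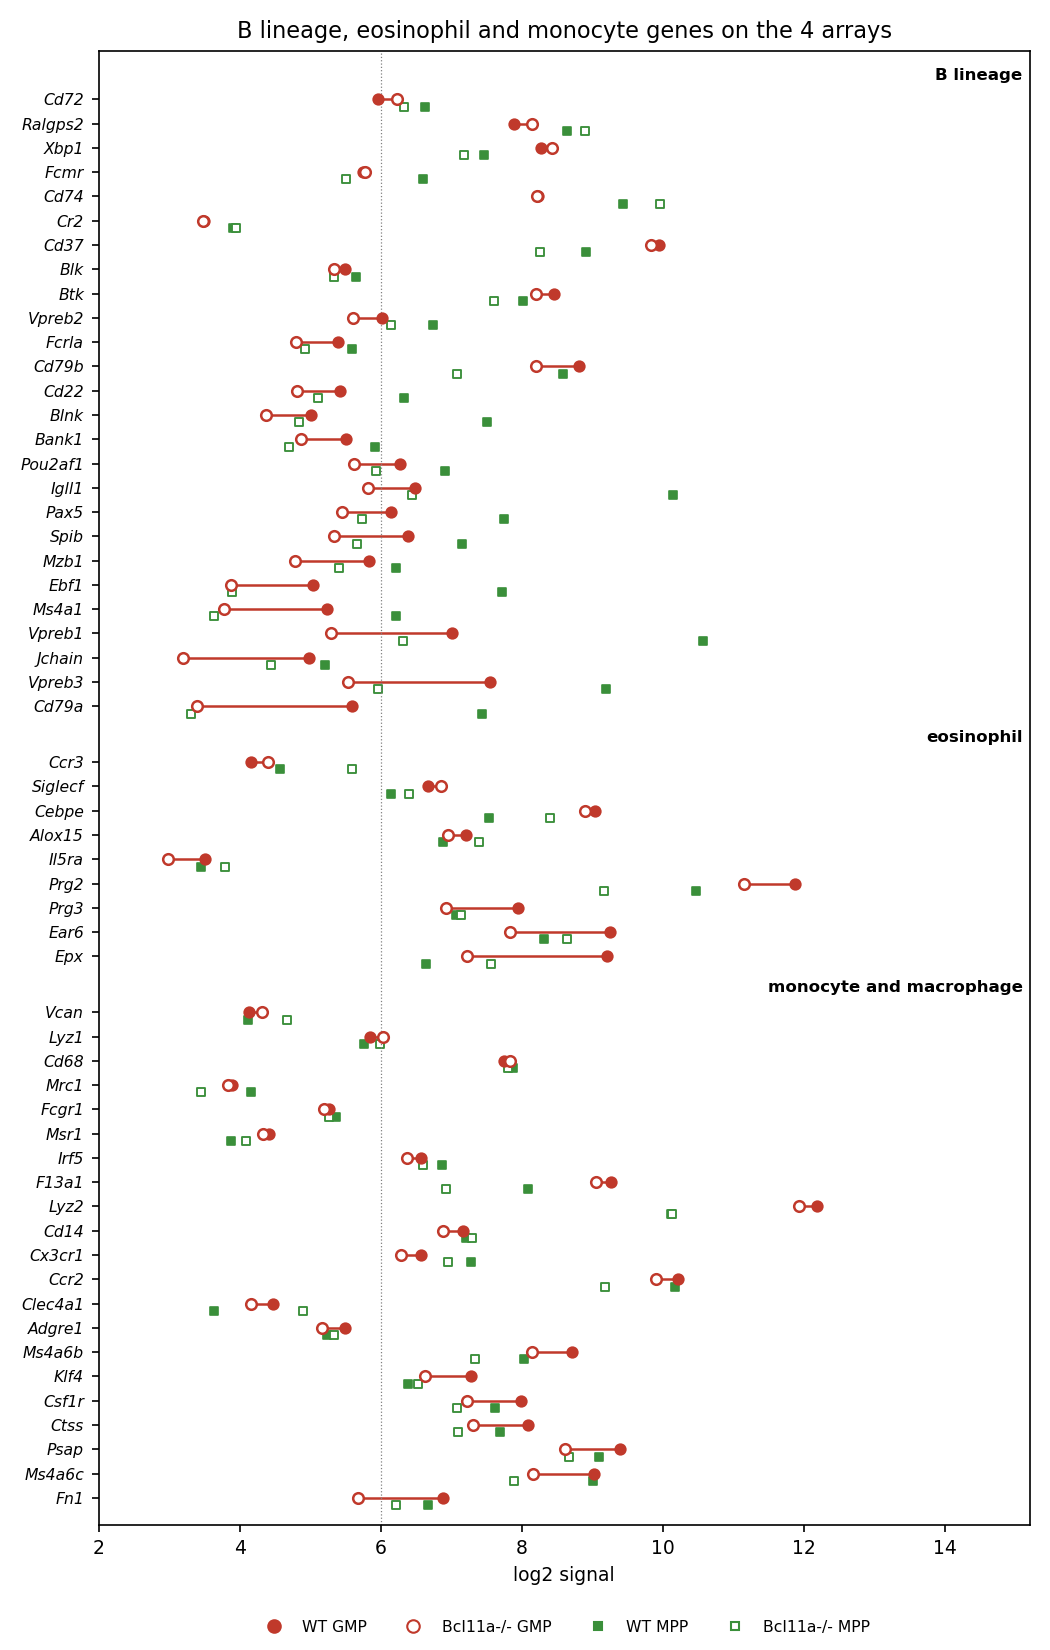
Log2 signal (x axis) of 26 B lineage genes, 9 eosinophil genes and 21 monocyte and macrophage genes on the 4 arrays, with symbols as in the plot of erythroid genes. *Gata1* of the eosinophil list is shown with the erythroid genes. For *Epx* the WT GMP array at 9.21 is the highest of the 4, while for *Vpreb1* the WT MPP array at 10.57 is.

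Among the lists of myeloid cells, that of eosinophils held the genes with the lowest values relative to WT. *Epx*, the eosinophil peroxidase gene, was at 9.21 in WT and 7.22 in *Bcl11a*-/- GMPs, and at 6.64 and 7.56 in MPPs. *Ear6*, of the eosinophil ribonuclease family, was at 9.24 and 7.83, and *Prg3*, which encodes a granule protein related to major basic protein, at 7.95 and 6.93. *Prg2*, the major basic protein gene itself, was at 11.88 and 11.15. The 4 granule genes thus had higher signal in WT GMPs than in *Bcl11a*-/- GMPs, and in MPPs the differences were 0.92 for *Epx*, 0.32 for *Ear6*, 0.07 for *Prg3* and -1.30 for *Prg2*. The other members had smaller differences below 0 (*Il5ra* -0.53, *Alox15* -0.25 and *Cebpe* -0.15) or differences above 0. *Siglecf* had a difference of 0.18 and *Ccr3* of 0.25, and *Gata1*, which eosinophils also need, was higher as given above. The list of 10 genes had 7 differences below 0, of which 3 passed 2-fold, 1 gene higher by more than 2-fold, and a median of -0.39. Over all genes 0.281% were lower and 0.361% higher by more than 2-fold.

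Monocyte and macrophage genes were slightly lower as a list. Of 21 genes 18 had a difference below 0, and the median was -0.29. The list had 1 gene lower by more than 2-fold, where 0.281% of all genes were. *Fn1* (fibronectin) was at 6.88 in WT and 5.68 in *Bcl11a*-/- GMPs. *Ms4a6c* had a difference of -0.86, *Psap* (prosaposin) of -0.78, the cathepsin gene *Ctss* of -0.78, the M-CSF receptor *Csf1r* of -0.77 and the monocyte transcription factor *Klf4* of -0.65. *Irf8*, which steers GMPs toward monocytes and DCs, was at 8.55 and 7.97. Genes on no monocyte list that were lower by more than 2-fold included *S100a4*, a calcium-binding protein gene (7.72 and 6.16), *Ms4a4c* (6.52 and 5.17) and *Ctsh*, cathepsin H (7.44 and 6.33). *Ly86*, the GMP identity gene whose product MD-1 binds the B cell and myeloid receptor RP105, was at 9.35 and 8.13 in GMPs and at 8.40 and 6.25 in MPPs.

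A pair of inflammatory chemokine genes had lower signal. *Ccl4* was at 8.64 in WT and 7.32 in *Bcl11a*-/- GMPs, and *Ccl3* at 10.62 and 9.45. *Cxcl2* was just within 2-fold, at 9.21 and 8.24. Of 21 chemokine and chemokine receptor genes 2 were lower and 0 higher by more than 2-fold, against 0.281% and 0.361% of all genes. The list median was -0.24. *Hspa1a*, the stress-induced Hsp70 gene, was at 9.01 and 7.11, and a probe set that names *Hspa1a* and *Hspa1b* was at 9.93 and 8.07. *Hspa1a* was the 1 gene over 2-fold among 17 heat shock genes, whose median was 0.06, and *Hsph1* had a difference of 0.90. Of 27 immediate early genes, which the handling of cells can induce, 0 were over 2-fold, 19 had a difference below 0, and the median was -0.32. Their part in the chemokine and Hsp70 differences was not tested.

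Interferon-inducible genes had a median near that of all genes, with single members far from it. *Ifi209*, of the Ifi200 family of nucleic acid sensors and their relatives, was at 8.24 in WT and 5.93 in *Bcl11a*-/- GMPs, and at 7.42 and 5.05 in MPPs. Each WT array was above both *Bcl11a*-/- arrays, and the differences were 4.93-fold and 5.16-fold. *Ifi202b*, of the same family, was at 6.67 and 5.54, *Ifi203* at 8.62 and 8.23, and *Ifi213* at 3.15 and 4.70. *Ifi27l2a*, of another interferon-induced family, was at 9.53 and 7.61 in GMPs and at 10.56 and 9.33 in MPPs, and *Ifi44l* at 6.82 and 5.76. *Iigp1*, an immunity-related GTPase, went the other way, at 6.92 and 7.97. Of 39 interferon-inducible genes 1 was higher and 2 lower by more than 2-fold (*Ifi27l2a* and the dim *Trim30d*), and the median was -0.04. Genes whose symbols start with Ifi numbered 15, of which 4 were lower and 1 higher by more than 2-fold. Over all genes 0.281% were lower and 0.361% higher. Symbol families were kept only where at least 3 members were over 2-fold, so this count was selected on its outcome. The other families kept were Slc and Zfp (347 genes, 3 higher and 0 lower).

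Each DC list had 1 gene lower and 0 higher by more than 2-fold, where 0.281% of all genes were lower and 0.361% higher. *Spib* was the 1 gene of 19 on the plasmacytoid DC list lower by more than 2-fold, and the median was -0.13. *Pld4*, an exonuclease gene of plasmacytoid DCs and macrophages, was at 6.99 and 5.76. Of 24 genes for classical DCs and MHC class II 1 was lower by more than 2-fold, *Kmo*, at 5.23 and 4.21. Of the 24 genes 16 had a difference below 0, and the list median was -0.08. The MHC class II genes *H2-Ab1*, *H2-Aa* and *H2-Eb1* had differences of 0.83, 0.65 and 0.65. A class II probe set that names *H2-DMb2* and *H2-DMb1* went the other way, with a difference of -0.60. The class I gene *H2-Q5* was at 8.36 and 9.54.

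The genes of neutrophil granules and of cell division were within 2-fold. The 12 primary granule genes had differences from -0.40 to 0.07 and a median of -0.17. The 18 genes of later granules and late neutrophils had a median of -0.14, and each list had 0 over 2-fold. Differences below 0 were seen for 10 of the 12 and 15 of the 18. *Mpo*, *Elane*, *Prtn3* and *Ctsg* had mean signals of 12 to 13, where 95% of probe sets differed by less than 0.22. In MPPs, the primary granule genes had a median of -0.70 with 5 of 12 lower and 0 higher by more than 2-fold. The later granule genes had an MPP median of 0.52 with 4 of 18 higher and 0 lower. Over all genes 2.02% were lower and 0.908% higher in MPPs. Among the 37 myeloid transcription factors only *Gfi1b* was over 2-fold, where 0.361% of all genes were higher and 0.281% lower in GMPs. The 23 mitosis genes and 25 DNA replication genes had 0 over 2-fold and medians of -0.17 and -0.09. Of these, 18 of 23 and 17 of 25 had a difference below 0. The 17 BCL2 family genes, the 19 p53 targets, the 35 adhesion genes and the 18 glycolysis genes also had 0 over 2-fold. Of 37 cytokine receptor genes only *Il7r* was, and *Il6st*, the shared chain of IL-6 family receptors, had a difference of -0.72. The 25 partners and relatives of Bcl11a, mostly of repressor complexes, had *Klf1* as their 1 gene over 2-fold, and *Kdm1a*, *Rcor1* and *Mbd3* differed by -0.28, 0.22 and 0.34.

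**Figure D4:**
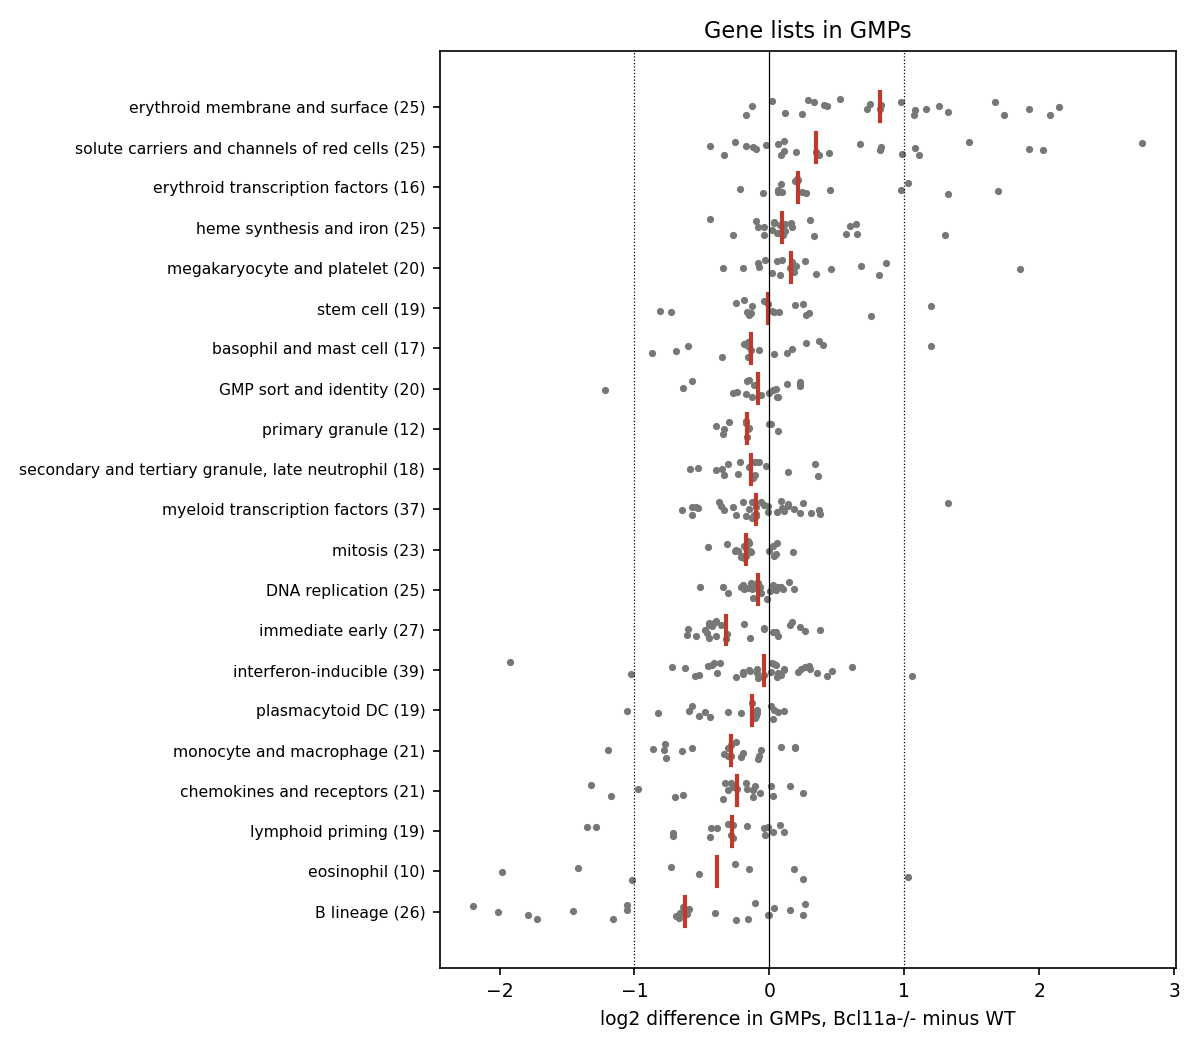
Log2 difference in GMPs, *Bcl11a*-/- minus WT, of each measured gene of 21 gene lists (grey points, 1 gene each, with the number of genes after each name) and the list median (red bar). Dotted lines mark a 2-fold difference. The erythroid membrane median is 0.82 and the B lineage median is -0.62, while the primary granule genes all lie between -0.40 and 0.07.

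Basophil and mast cell genes gave a mixed picture. *Gata2* was the 1 gene of 17 over 2-fold, where 0.361% of all genes were higher and 0.281% lower. The mast cell protease *Cpa3* had a difference of 0.37 and the basophil protease *Mcpt8* of -0.69, and the list median was -0.13. *Slc18a2*, a monoamine transporter gene of mast cells and platelets, was on no list and was at 6.54 in WT and 7.55 in *Bcl11a*-/- GMPs. The stem cell list of 19 genes, which also holds *Gata2*, had a median of -0.01.

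The remaining genes with lower signal had assorted roles. *Cyp2j6* and *Cyp39a1*, of the cytochrome P450 family, were at 6.11 and 4.44 and at 6.23 and 5.20. The histone genes *H3c15* and *H4c3* were at 6.17 and 5.03 and at 8.14 and 7.11. Small RNA genes were *Vaultrc5*, a vault RNA (6.78 and 5.30), and *Scarna13* (8.85 and 7.78). *AA467197*, whose symbol gives no function, was 2.43-fold lower. Of the 31 lower genes 17 had a signal under 6 in *Bcl11a*-/- GMPs, and 16 were on no list.

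Genes over 2-fold in GMPs were in part over 2-fold in MPPs. Of the 72 higher genes 15 (20.8%) were also higher by more than 2-fold in MPPs, which is 8.29% of the 181 higher there. Of the 56 lower genes 19 (33.9%) were also lower in MPPs, or 4.73% of the 402 lower there. Among all genes 0.908% were higher and 2.02% lower by more than 2-fold in MPPs. The 2 comparisons share no array, but by the study's text GMPs and MPPs were taken from the same BM, so the pools are not independent. Among the genes that reached a signal of 6, those higher in both included *Hba-x*, *Clca3a1*, *Mt2*, *Spns2*, *Hif3a*, *Myh10* and *Cd55*, the complement regulator (5.61 and 6.64 in GMPs, 6.42 and 7.79 in MPPs). Those lower in both included *Ifi209*, *Vpreb3*, *Vpreb1*, *Hspa1a*, *Ifi27l2a*, *Ly86* and *Ccl3*.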

How the data were processed

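The data are 4 one-color arrays, 1 each of WT and *Bcl11a*-/- GMPs and MPPs. The authors deposited log2 signals made by RMA, with quantile normalization, in the ArrayStar software, and scanner files were not used here. Of 30177 rows, 1324 unannotated rows with the lowest identifiers were taken as array controls, which left 28853 probe sets, of which 21789 had 1 gene symbol in the platform annotation, 1621 several and 5443 were unnamed here. A gene was the mean of the probe sets with its symbol alone. Symbols were checked through Entrez identifiers against RefSeq (GRCm38.p6): 21698 matched and 0 were updated.

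Differences, counts over 2-fold and medians of 36 gene lists were computed with Python 3.11.15, numpy 2.4.6, pandas 2.3.3 and statsmodels 0.14.6 (lowess). With 1 array a group there are 0 residual degrees of freedom, so no test was run. The number of arrays limits precision. Named genes were the 20 largest differences each way with log2 signal of at least 6 (predicted genes, Riken clones, receptors of smell, some small RNAs and antigen receptor segments excepted), list members over 2-fold or among the 3 largest each way, markers, genes over 2-fold in opposite directions, and antigen receptor probe sets. Genes further down these rankings and lists were chosen after their values were seen. Symbol families were kept only where at least 3 members were over 2-fold. The members and lists were chosen with earlier results of these data known. Of 754 list names, 666 were measured, and the others were not analysed here. Alternatives were a signal filter, a floor at 5, median and lowess centring, renewed quantile normalization, other thresholds, other row sets and the brightest probe set. The steps were tested on simulated data.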

Additional observations from a re-analysis of the deposited data

Results flagged for a closer look

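*Cldn13*, a claudin family gene, was over 2-fold in opposite directions in the 2 populations. It was at 5.77 in WT and 7.52 in *Bcl11a*-/- GMPs, a difference of 1.75, and at 7.84 in WT and 6.79 in *Bcl11a*-/- MPPs, a difference of -1.05. The WT GMP array was the lowest of the 4 and the WT MPP array the highest. With 1 array a group, the difference between the populations was not tested.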

How the results depend on the processing

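No paired analysis was possible because each group has 1 array, and for the same reason no replicate could be left out. Over all probe sets 92 were higher and 101 lower by more than 2-fold. Over features that reached log2 6 on a GMP array, or with signals under 5 set to 5, there were 55 and 49, and the gene counts were 50 and 31. At a 2-fold threshold this filter and this floor pick the same features by arithmetic, so their equal counts are not separate support. At 1.5-fold there were 641 and 527 probe sets and 402 and 298 genes, and at 3-fold 19 and 28 probe sets and 18 and 11 genes. Among probe sets with 1 symbol, 62 were lower. The B lineage list had 3 genes lower by more than 2-fold with the filter or the floor, in place of 8. These changes follow from which features and thresholds are counted. No named gene over 2-fold changed direction under the alternatives run for it. List medians near 0 could change sign, as for globins (-0.01 over 9 genes, 0.42 over the 3 that reached 6). Median and lowess centring, renewed quantile normalization and the brightest probe set left every gene count within 1.5 times its value. Of 66 named genes over 2-fold, 13 were not with the floor at 5, among them *Cd79a*, *Ebf1*, *Il7r*, *Dntt*, *Hbb-y* and *Ppbp*, and *Prg3* was not with lowess centring or renewed quantile normalization.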

Other observations

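Genes of platelet receptors were within 2-fold in GMPs, with *Gp5*, a subunit of the platelet receptor for von Willebrand factor, at 5.92 in WT and 6.79 in *Bcl11a*-/- GMPs and *F2r*, a thrombin receptor gene, at 6.58 and 7.26. Among adhesion genes *Pecam1* had a difference of 0.58 and *Vcam1* of -0.55. *Myc* was at 11.81 and 12.18, and *Hk3*, a hexokinase gene of myeloid cells, at 7.42 and 8.08.

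Probe sets unnamed here held 13 with a difference over 2-fold and a signal that reached log2 6, 3 higher and 10 lower in *Bcl11a*-/- GMPs, so 13 of the 104 such probe sets could not be assigned to a gene.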
